A study of Mus musculus with 50 samples.

Results

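NIH 3T3 is an immortalised mouse fibroblast line. A pair of its derivatives was compared here, one in which mifepristone induces the cap-binding protein eIF4E and a non-inducible control, both given mifepristone and no eIF4E inhibitor. RNA of the polysome fraction titled heavy and total RNA were each measured on Illumina bead arrays, after 4 h of treatment. There were 3 cultures of each line, chosen by their titles, which gave 12 of the series' 50 arrays and 6 of its 25 cultures. The inducible cultures lay in processing batches 1, 2 and 3, and the 3 non-inducible cultures lay in batch 4. No batch held both groups, so the line and the batch cannot be told apart in any difference given here. The labels do not say how many clones either derivative came from, nor whether replicates were grown separately. The p-values therefore measure a spread among cultures only, pooled over all 25 of the series.

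3 further groups are set beside the comparison without being part of its difference, although the spread was estimated over all 25 cultures. The inducible line without mifepristone had 3 cultures, in batches 1 and 3. The inducible line with mifepristone and 4Ei-4, a less potent analog of the inhibitor 4Ei-1, at 200 µM had 3 cultures in batch 4. The non-inducible line without mifepristone had 1 culture, also in batch 4. Levels of these groups are described and not counted as support. The 4Ei-4 cultures held another compound and are set against the same non-inducible cultures. The cultures without mifepristone lacked the treatment that both compared groups had, and only 1 was of the non-inducible line.

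eIF4E binds the cap at the start of an mRNA and brings it to the ribosome as part of the eIF4F complex. In cultured fibroblasts, high eIF4E is known to raise the translation of a subset of mRNAs for growth, survival and invasion. Mifepristone is a steroid that blocks the progesterone and glucocorticoid receptors and is used to switch on engineered transcription factors. A level below is log2 normalized intensity, a difference is the inducible minus the non-inducible line on that log2 scale with its SE, and efficiency is the log2 polysome level minus the log2 total level of a culture. A gene is called where limma's Benjamini-Hochberg adjusted p over the 12644 genes tested was below 0.05.

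Part of the results concerns targets of NF-kappaB, the transcription factor family that drives chemokine and cytokine genes, and of interferon. Their promoter sequences are shown because the mRNAs of these genes were lower in the inducible line. RefSeq promoters (GRCm38.p6, 250 bases before to 50 after a gene's start) were searched on both strands for the NF-kappaB-type motif of GGG, any 3 bases and TTCC. Of the 15 members of the NF-kappaB and chemokine list called in total RNA, all of them lower, 9 had a promoter in the table and 7 of these held the motif. 1 of the 12 members with a promoter that were not called held it. The list was chosen with earlier results of these data known, so these counts are a description without a test. The motif was in 5.56% of all 32851 promoters and in those of 6.83% of the tested genes that had one. Each run below is 30 bases on the gene's own strand, 5′ to 3′, with the match in capitals, which reads as the reverse complement where the match lay on the other strand.
Cxcl1: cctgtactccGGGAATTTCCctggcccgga
Nfkb2: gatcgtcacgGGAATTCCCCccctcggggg
Nfkbia: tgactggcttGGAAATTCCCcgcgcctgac
Nfkbie: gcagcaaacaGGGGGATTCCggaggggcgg
Tnfaip3: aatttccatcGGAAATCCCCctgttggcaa
Csf1: gggccttgagGGAAAGTCCCtaggggccag
Ccl9: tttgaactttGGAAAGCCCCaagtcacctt
The Cxcl1 run lies at chr5:90891164-90891193 on the plus strand, and the Nfkb2 run at chr19:46304689-46304718 on the plus strand. The Nfkbia run is at chr12:55492657-55492686 on the minus strand, the Nfkbie run at chr17:45555584-45555613 on the plus strand, and the Tnfaip3 run at chr10:19015403-19015432 on the minus strand. The Csf1 and Ccl9 runs, both on the minus strand, are at chr3:107760604-107760633 and chr11:83578652-83578681. Relative to the gene's start the matches begin between position -154, in Csf1, and position -12, in Tnfaip3. Cxcl1, Nfkb2 and Tnfaip3 held further matches. The promoters of Cx3cl1 and Cxcl12, called lower as well, held none.

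The core of the interferon-stimulated response element, taken as GAAA, any 2 bases and GAAA, was searched in the same way and was in 3.44% of all promoters. Of the 8 interferon list members called lower in total RNA, 6 had a promoter and 3 of these held it, as did 11 of the 17 members with a promoter that were not called. The 3 are shown, since Gbp2 and Gbp3 were among the interferon list's largest differences.
Gbp2: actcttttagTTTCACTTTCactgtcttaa
Gbp3: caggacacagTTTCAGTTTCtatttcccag
Ifitm3: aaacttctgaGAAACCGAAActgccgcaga
These lie at chr3:142620594-142620623 on the plus strand for Gbp2, chr3:142559989-142560018 on the plus strand for Gbp3, and chr7:141010706-141010735 on the minus strand for Ifitm3, where the match begins 19 bases after the start. A match is a run of letters and not a bound site, and these 2 motifs were counted independently of each other.

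The cultures were fibroblast-like by their markers. Of 14 fibroblast markers, 13 were detected on all 12 arrays, among them Col1a1, Col3a1, Vim, Fn1, Lum, Dcn and Twist1, and Pdgfrb was detected on 11. Of 32 markers of 7 other cell types, 2 were detected on all 12 arrays (Sox9 and Lpl) and 5 on none, among them the adipocyte regulator Pparg and the haemoglobin gene Hba-a1. limma called 0 of the 32 in total RNA, polysome RNA or efficiency, with 3, 0 and 1 at an unadjusted p under 0.05. Of the fibroblast markers, Pdgfra was called lower in total RNA (-1.36 ± 0.38, limma, adjusted p = 0.0368), a call lost in every omission of 1 culture except that of inducible culture 3 (adjusted p up to 0.108). Most epithelial markers were detected on more non-inducible arrays. Cdh1, the epithelial cadherin, was detected on 6 of 6 non-inducible and 1 of 6 inducible arrays, Cldn7 on 5 and 1, and Krt8 on 3 and 0. The keratin gene Krt14 went the other way, on 1 and 4, and Ocln was detected on none. In total RNA the differences of these 5 genes ran from -0.27 to 0.41, with 0 called. Signal differed between the lines. Mean intensity was 183 to 392 on the inducible arrays and 356 to 421 on the non-inducible ones, and the share of probes detected was 25.4% to 37.2% against 36.1% to 39.9%. Inducible culture 2 had the dimmest arrays, at 183 and 200, with 26.2% and 25.4% of probes detected. The part of this in the detection counts given here was not tested. These are bulk samples, so fewer cells of a type and less RNA per cell cannot be told apart.

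Eif4e, the induced gene, could not be checked with these arrays. Its total RNA level (gene ID 13684) was 4.68, 4.65 and 5.03 in the inducible cultures and 5.09, 5.04 and 5.09 in the non-inducible ones, with detection on 1 of 3 and 3 of 3 arrays. On polysomes the levels were 5.23, 4.37 and 4.77 against 5.39, 5.26 and 5.42. These values lie near background and do not rise in the inducible line. The difference was -0.29 ± 0.29 in total RNA by limma (adjusted p = 0.669). It was -0.57 ± 0.37 on polysomes (limma, adjusted p = 0.56), and the efficiency difference was -0.28 ± 0.36 (limma, adjusted p = 0.909). Without inducible culture 1 these were -0.85 and -0.61, and without inducible culture 2 they were -0.27 and -0.06. The labels do not say whether the probe covers the induced transcript.

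In total RNA limma called 789 of 12644 genes between the lines (6.24%), 366 higher in the inducible line (2.89%) and 423 lower (3.35%), and the median difference over all genes was 0.03. On polysomes it called 325 (2.57%), 149 higher (1.18%) and 176 lower (1.39%). In efficiency it called 0 (0%), with 1020 genes at an unadjusted p under 0.05, and other settings gave between 0 and 64 calls in these cultures. Called in both RNAs were 225 genes, 28.5% of the calls in total RNA and 69.2% of those on polysomes, and all 225 had the same sign in both. Of these, 92 were higher and 133 lower in the inducible line. Over the 889 genes called in either RNA the median efficiency difference was 0.06. This median takes higher and lower genes together, so opposite shifts would cancel in it.

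The number of calls depended on single cultures. In total RNA it was 457 without inducible culture 1, 456 without inducible culture 2, 1665 without inducible culture 3 and 478 without non-inducible culture 2. On polysomes it was 192 without inducible culture 1, 196 without inducible culture 2 and 202 without non-inducible culture 1. The inducible cultures, spread over 3 batches, had a median SD per gene of 0.36 in total RNA, against 0.13 for the non-inducible cultures, which share a batch. The fit used a single estimate of a gene's spread for all groups. The median 95% half-width of a difference was 0.70 in total RNA, 0.83 on polysomes and 0.75 in efficiency.

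**Figure D1:**
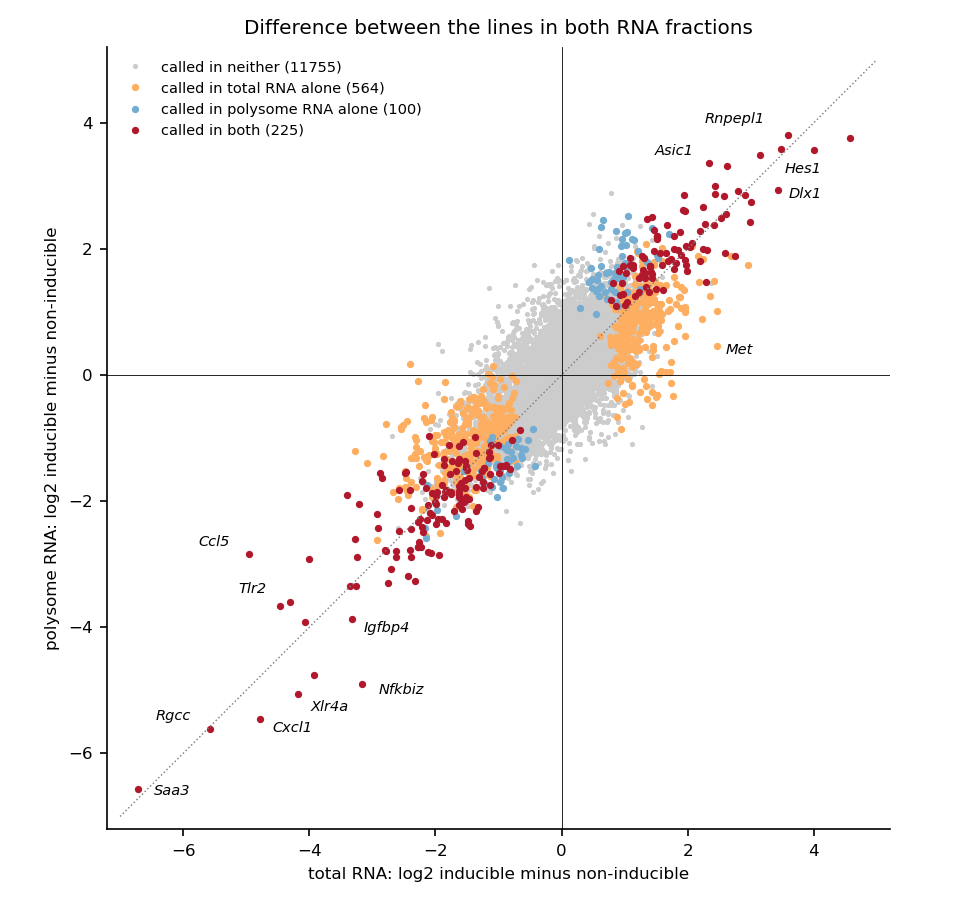
Each point is 1 of 12644 genes, with the log2 difference inducible minus non-inducible in total RNA on the horizontal axis and on polysomes on the vertical axis. Red points (225) were called in both RNAs and have the same sign on both axes, orange (564) in total RNA alone and blue (100) on polysomes alone. The dotted line marks equal differences, and Met, whose polysome signal was detected on 1 of the 3 inducible and none of the non-inducible arrays, lies far below it.

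The mRNAs highest in the inducible line included transcriptional regulators. Hes1 (gene ID 15205) encodes a repressor and is a textbook target of Notch signalling, in which a cleaved receptor fragment enters the nucleus and activates transcription. Its total RNA levels were 9.27, 9.13 and 9.72 in the inducible cultures and 5.25, 5.50 and 5.36 in the non-inducible ones. Its polysome levels were 8.83, 9.19 and 9.82 against 5.84, 5.96 and 5.36. Every inducible culture was above every non-inducible one in both RNAs. For this gene and those below, such a lack of overlap follows largely from naming genes by large called differences or small p. The Hes1 difference was 4.00 ± 0.44 in total RNA (limma, adjusted p = 6.71e-06) and 3.56 ± 0.51 on polysomes (adjusted p = 0.000223), higher in 9 of 9 pairs of cultures.

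Hey1 (gene ID 15213), a related repressor that is also a Notch target, was at 7.18, 8.21 and 7.95 in total RNA of the inducible cultures. In the non-inducible cultures it was at 4.81, 4.54 and 4.52, with detection on 1 of 3 arrays. The difference was 3.15 ± 0.35 (limma, adjusted p = 8e-06), and on polysomes 3.49 ± 0.41 (adjusted p = 3.6e-05). Hes6, of the same family, was 1.33 ± 0.30 higher in total RNA (limma, adjusted p = 0.0102) with no call on polysomes.

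Beyond these 3 higher members, limma called 2 of the 25 tested genes of the Notch list lower in total RNA (20% called in either direction, against 6.24% of all genes). They were Dtx4, a regulator of Notch receptors (-1.73 ± 0.45, with -0.63 from a second probe), and Adam17, a protease (-1.19 ± 0.34). On polysomes 2 were called higher, Hes1 and Hey1, and 0 lower (8%, against 2.57% of all genes in either direction and 1.18% higher). The list's median difference was 0.02 in total RNA and 0.12 on polysomes, near the medians over all genes. Both lower calls were lost without inducible culture 1 (limma, adjusted p up to 0.11 over the 6 omissions for Adam17 and 0.0751 for Dtx4), without inducible culture 2 and without non-inducible culture 2, and that of Adam17 also without non-inducible culture 1.

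Without mifepristone the inducible line had Hes1 at 6.80, 5.11 and 5.80 and Hey1 at 4.53, 4.69 and 4.6 in total RNA. The Hey1 levels lie at those of the non-inducible line, while Hes1 at 6.80 and 5.80 lay above the non-inducible range and below the levels with mifepristone. In batch 4, the inducible cultures with mifepristone and 4Ei-4 had Hes1 at 9.50, 9.52 and 9.54 and Hey1 at 8.11, 8.17 and 8.01. These cultures held the analog as well, so the levels are a description.

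Dlx1 (gene ID 13390), a homeobox transcription factor, was at 9.04, 9.29 and 9.42 against 5.73, 6.13 and 5.60 in total RNA. It differed by 3.43 ± 0.30 in total RNA (limma, adjusted p = 2.52e-07) and by 2.94 ± 0.33 on polysomes (adjusted p = 2.09e-05). Its levels in the inducible line without mifepristone, 7.31, 7.22 and 7.25, lay between those of the compared groups. Phf13, which encodes a chromatin protein with a PHD finger, was at 10.24, 10.66 and 10.84 against 7.80, 7.87 and 7.72, a difference of 2.79 ± 0.34 (limma, adjusted p = 2.31e-05), and 2.91 ± 0.37 on polysomes. Etv5, an ETS transcription factor, was 2.43 ± 0.38 higher in total RNA and 3.00 ± 0.51 on polysomes (limma, adjusted p = 0.00144). On polysomes its levels were 9.97, 9.55 and 8.62 against 6.56, 6.06 and 6.5.

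Genes of other kinds were higher as well. Sgpl1, the lyase that breaks down sphingosine phosphate, was at 9.84, 10.76 and 9.36 on polysomes against 6.92, 6.63 and 6.49. It differed by 3.31 ± 0.40 there (limma, adjusted p = 4.21e-05) and by 2.63 ± 0.35 in total RNA. Asic1, an acid-sensing ion channel, was at 9.93, 10.58 and 9.49 on polysomes against 6.39, 6.92 and 6.62. Its difference was 3.36 ± 0.42 on polysomes (limma, adjusted p = 5.58e-05) and 2.33 ± 0.28 in total RNA. Asic1 was also high in the inducible line without mifepristone, at 9.59, 9.23 and 9.58 in total RNA, while the non-inducible culture without it was at 7.32.

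Ppp1r3d, which targets protein phosphatase to glycogen, was 3.01 ± 0.36 higher in total RNA (limma, adjusted p = 1.81e-05) and 2.74 ± 0.35 on polysomes. Cmtm7, a membrane protein, was 2.99 ± 0.40 higher in total RNA (limma, adjusted p = 7.9e-05), with levels of 10.45, 11.43 and 9.75 against 7.77, 7.70 and 7.20, and other probes of Cmtm7 gave 2.69 and 1.40. Its polysome call (2.43 ± 0.63) was lost without any 1 culture other than non-inducible culture 2, with an adjusted p of up to 0.112. Fhl3, a LIM-domain protein, was 2.69 ± 0.41 higher in total RNA (limma, adjusted p = 0.000328). On polysomes the Fhl3 difference was 1.88 ± 0.55 and was not called. Steap2, a metal reductase chosen after its values were seen, was 2.24 ± 0.24 higher in total RNA (limma, adjusted p = 5.55e-06) and 2.66 ± 0.33 on polysomes.

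In all, 8 genes called in total RNA were detected on all 6 inducible arrays and on none of the 6 non-inducible arrays. Rnpepl1, an aminopeptidase-like protein, was at 7.91, 8.18 and 7.84 in total RNA against 4.34, 4.37 and 4.44. Its non-inducible values were not above background, so the fold is a bound, at least 9.45-fold in total RNA and at least 11-fold on polysomes. Here and below a bound sets the brighter group's mean against the lowest signal detected on the dim arrays or the dim probe's own signal, whichever is higher. The other bounds in total RNA were at least 5.86-fold for Evi2a, 4.59-fold for B4galnt2, a glycosyltransferase, and 3.68-fold for Vldlr, a lipoprotein receptor. Tmem181c-ps and Tmem181a, at least 3.83-fold and 3.42-fold higher, are near-identical copies, so their signals may come from one another.

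These 6 genes were also above the non-inducible levels in every inducible culture without mifepristone. Rnpepl1 was at 8.70, 7.72 and 8.16 there in total RNA, and at 4.41 in the non-inducible culture without mifepristone. Plpp2, a lipid phosphatase chosen after its values were seen, was at 9.44, 8.94 and 9.31 against 4.71, 4.83 and 4.46, with detection on 1 of 3 non-inducible arrays. Its difference was 4.57 ± 0.23 (limma, adjusted p = 1.74e-11), and without mifepristone the inducible line held it at 10.00, 9.35 and 9.57.

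**Figure D2:**
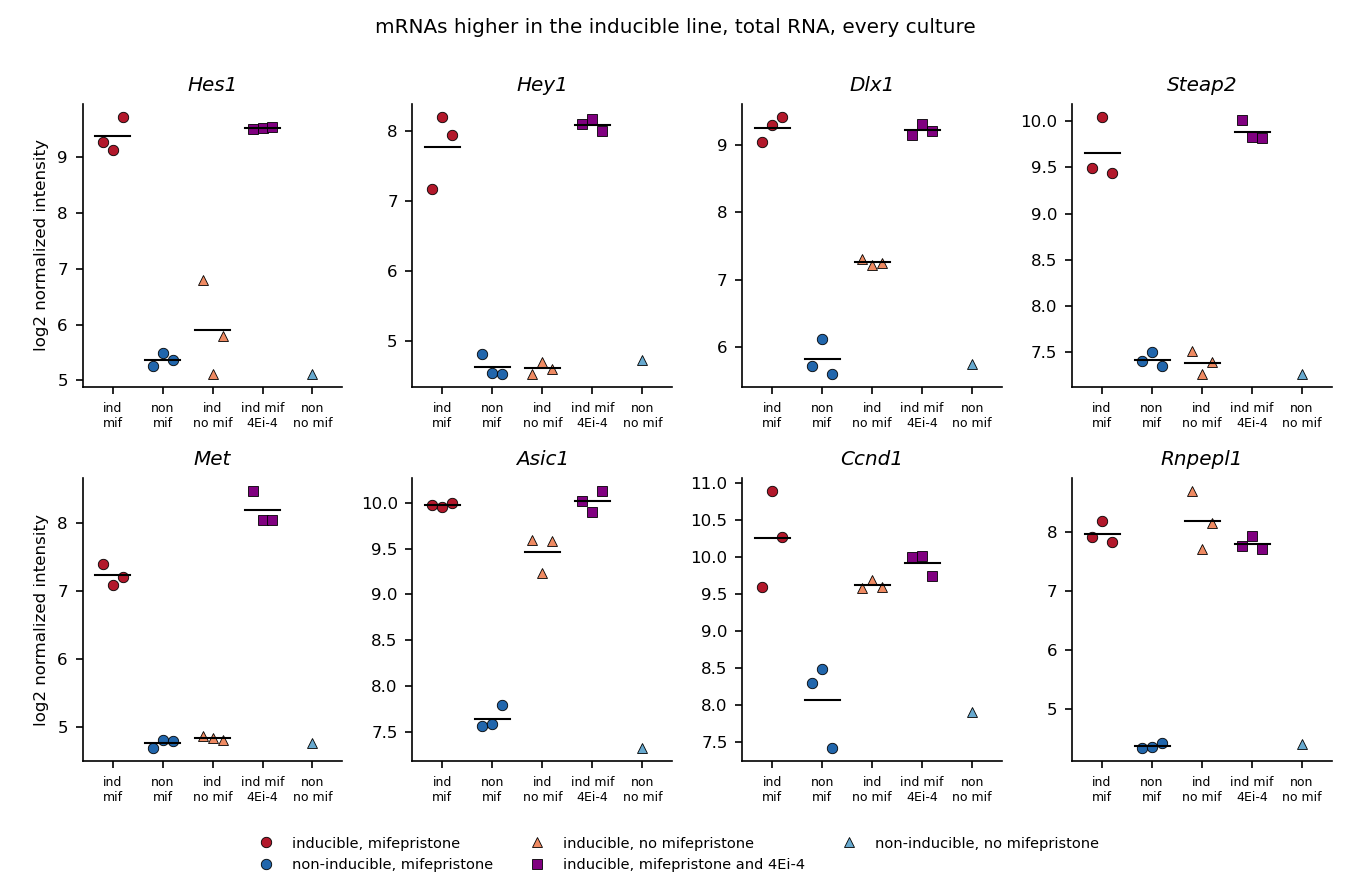
Log2 normalized intensity in total RNA of 8 mRNAs higher in the inducible line, 1 point per culture, with a bar at the mean of each group of 3 (ind, inducible line; non, non-inducible line; mif, mifepristone). Hes1, Hey1, Steap2 and Met were low in the inducible line without mifepristone, while Asic1, Ccnd1 and Rnpepl1 were high there too.

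Growth-related mRNAs that other work has called sensitive to eIF4E were called in both directions. Of 24 tested members of that list, 2 were called higher in total RNA and 2 lower (16.7%, against 6.24% of all genes), and on polysomes 3 higher and 1 lower (16.7%, against 2.57%), with a median difference of 0.00 in both. Among genes detected on all 12 arrays the median in total RNA was 0.67. Without inducible culture 1 or non-inducible culture 1 the polysome counts were 1 higher and 0 lower. Ccnd1, the cyclin D gene that drives entry into S phase, was at 9.59, 10.90 and 10.28 in total RNA against 8.29, 8.48 and 7.41. It differed by 2.20 ± 0.36 there (limma, adjusted p = 0.00071) and by 1.81 ± 0.35 on polysomes (adjusted p = 0.00435), with an efficiency difference that was not called. Its levels without mifepristone in the inducible line were 9.58, 9.69 and 9.59.

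Tnfrsf12a, a receptor of the TNF family, was 1.66 ± 0.39 higher in total RNA and 1.94 ± 0.52 on polysomes. Its call in total RNA was lost without inducible culture 1 (limma, adjusted p = 0.0521), and on polysomes without inducible culture 1, non-inducible culture 1 or non-inducible culture 2 (adjusted p up to 0.153). Tgfb1, the growth factor, was called on polysomes (1.71 ± 0.42, limma, adjusted p = 0.032), a call lost without any 1 culture other than inducible culture 3 (adjusted p up to 0.0989), and had 0.88 ± 0.36 in total RNA. Mmp9, a gelatinase on the same list, went the other way. Its total RNA levels were 6.97, 6.30 and 7.43 against 10.43, 9.82 and 10.08, a difference of -3.21 ± 0.58 (limma, adjusted p = 0.00185). Its polysome call (-2.04, limma, adjusted p = 0.0318) was lost without inducible culture 1 or 2 or non-inducible culture 1 (adjusted p up to 0.0903). The oxygen-sensing factor Hif1a was lower in total RNA as well (-1.40 ± 0.39, limma, adjusted p = 0.0327), but not without inducible culture 2 or non-inducible culture 2 or 3 (adjusted p up to 0.0901).

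Among growth factors, receptors and their ligands, limma called 2 of 38 tested members higher and 4 lower in total RNA (15.8%, against 6.24% of all genes, 2.89% higher and 3.35% lower), with 1 lower when inducible culture 2 was left out. Met (gene ID 17295), the receptor for hepatocyte growth factor, was at 7.40, 7.08 and 7.20 in total RNA against 4.68, 4.80 and 4.79. It differed by 2.47 ± 0.28 (limma, adjusted p = 7.96e-06) in total RNA, but on polysomes its levels were 4.44, 4.47 and 5.78 against 4.43, 4.51 and 4.37. Met was detected on 1 of 3 inducible and 0 of 3 non-inducible polysome arrays, so no efficiency difference is given for it. Without mifepristone the inducible line had Met at 4.87, 4.84 and 4.80 in total RNA.

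Gas6 (gene ID 14456), a ligand of the TAM receptor kinases chosen after its values were seen, was at 9.40, 8.97 and 9.61 in total RNA against 7.66, 7.57 and 6.88. It was 1.96 ± 0.41 higher there (limma, adjusted p = 0.00585) and 2.60 ± 0.48 higher on polysomes (adjusted p = 0.00313), and both calls held in all 6 omissions of a culture (adjusted p up to 0.0193). In batch 4 with 4Ei-4 it was at 9.81, 9.65 and 9.65 in total RNA. Fgfr1, a fibroblast growth factor receptor, was called on polysomes alone, at 7.86, 8.60 and 7.54 against 5.84, 6.06 and 6.14 (1.99 ± 0.33, limma, adjusted p = 0.00132). Ddr1, a collagen receptor kinase, was lower in total RNA (-2.17 ± 0.38, limma, adjusted p = 0.00143), with detection on 1 of 3 inducible arrays. A second Ddr1 probe, detected on 5 of 12 arrays, gave 0.21 in total RNA. Wnt5a, a Wnt ligand, was higher in both RNAs, by 1.90 ± 0.41 and 1.91 ± 0.42, and Sfrp2, a secreted Wnt antagonist, was lower by -3.40 ± 0.27 in total RNA (limma, adjusted p = 6.81e-08). Sfrp2 was detected on 1 of 3 inducible total RNA arrays.

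Igfbp6 and Igfbp4, both insulin-like growth factor binding proteins, differed in opposite directions. Igfbp6 was at 12.23, 12.18 and 11.26 in total RNA against 10.07, 9.91 and 9.92, a difference of 1.92 ± 0.26 (limma, adjusted p = 7.95e-05). Igfbp4 was at 9.16, 9.49 and 8.45 against 12.30, 12.38 and 12.42. Its difference was -3.33 ± 0.30 in total RNA (limma, adjusted p = 3.7e-07) and -3.87 ± 0.50 on polysomes (adjusted p = 6.99e-05). A second Igfbp4 probe gave -3.78 and -3.99.

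The list with the largest share of calls in total RNA, of 27 counted, was lower in the inducible line. This list, like the others, was chosen with earlier results of these data known, so its share is a description. Of 28 tested genes of the NF-kappaB and chemokine list, limma called 15 lower and 0 higher in total RNA (53.6%, against 6.24% of all genes in either direction and 3.35% lower), with a median difference of -1.23. On polysomes 6 were lower and 0 higher (21.4%, against 2.57%), with a median of -0.91. With the authors' deposited log2 values the medians were -0.51 and -0.42, with 13 lower in total RNA and 11 on polysomes, and among the 12 members detected on all 12 arrays 5 and 1 were lower. Within batch 4, against the inducible cultures that also held 4Ei-4, the medians were -0.91 and -0.50. Over the omissions of 1 culture, 13 to 16 members were lower and 0 or 1 higher in total RNA. In efficiency none was called and the median was 0.16, with 5 at an unadjusted p under 0.05.

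Cxcl1 (gene ID 14825), a chemokine that draws neutrophils, was at 7.64, 8.99 and 7.34 in total RNA of the inducible cultures and at 13.18, 12.62 and 12.50 in the non-inducible ones. On polysomes it was at 6.02, 6.68 and 5.99 against 12.46, 11.48 and 11.14. No culture of one line reached the range of the other. The difference was -4.78 ± 0.87 in total RNA (limma, adjusted p = 0.00199) and -5.46 ± 1.01 on polysomes (adjusted p = 0.00331). In batch 4 the inducible cultures with 4Ei-4 lay between the lines, at 9.80, 9.80 and 10.61 in total RNA.

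Ccl2 (gene ID 20296), a chemokine that draws monocytes, was at 6.63, 7.18 and 6.75 against 11.46, 10.97 and 11.03 in total RNA. It differed by -4.30 ± 0.58 (limma, adjusted p = 8.56e-05) and by -3.60 ± 0.65 on polysomes (adjusted p = 0.00251). Ccl5, a chemokine for T cells, was at 4.62, 4.6 and 5.09 against 10.17, 9.58 and 9.44 in total RNA, with detection on 1 of 3 inducible arrays. On polysomes Ccl5 was detected on 0 of 3 inducible arrays and was at least 5.26-fold lower (limma, adjusted p = 5.4e-05). The neighbouring chemokine genes Ccl7 (-1.92 ± 0.39) and Ccl9, at least 1.49-fold lower, were called in total RNA alone, as was the membrane-bound chemokine Cx3cl1, at least 3.71-fold lower (limma, adjusted p = 1.74e-06).

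Several of the called genes encode subunits or inhibitors of NF-kappaB that are themselves known targets of it. Nfkbiz, a nuclear regulator of this pathway, was at 7.90, 7.15 and 7.77 against 10.89, 10.73 and 10.69 in total RNA. It differed by -3.16 ± 0.43 (limma, adjusted p = 8.91e-05) and by -4.90 ± 0.69 on polysomes (adjusted p = 0.000189). Tnfaip3, which removes ubiquitin to restrain the pathway, was detected on none of the inducible arrays and was at least 2.42-fold lower in total RNA (limma, adjusted p = 6.71e-06) and at least 2.03-fold lower on polysomes.

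Nfkb2, a subunit, differed by -2.20 ± 0.36 in total RNA (limma, adjusted p = 0.000669), with detection on 1 of 3 inducible arrays. Relb, its partner, differed by -1.45 ± 0.38, and without inducible culture 2 or non-inducible culture 1 its adjusted p rose to as much as 0.0785. The inhibitor Nfkbie was at least 2.95-fold lower (limma, adjusted p = 0.0167), but a second probe, detected on 7 of 12 arrays, gave a log2 difference of -0.78. Nfkbia, the best known inhibitor, had -1.22 ± 0.35 (limma, adjusted p = 0.0415), and was not called without inducible culture 1 or 3 or without non-inducible culture 1 or 2, with an adjusted p of up to 0.11. Rela, the main activating subunit, was not called. The adhesion receptor Vcam1 (-2.67 ± 0.45) and the macrophage growth factor Csf1 (-2.48 ± 0.60) were lower in total RNA and not called on polysomes, and Csf1 was not called without inducible culture 2 (adjusted p = 0.053).

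Cxcl12, another chemokine, was called lower (-1.39 ± 0.29, limma, adjusted p = 0.00613), but 2 other probes detected on all 12 arrays gave 0.57 and -0.03. The members of the list named in these paragraphs, other than Cxcl1, Ccl5, Cx3cl1, Tnfaip3 and Vcam1, were chosen after their values were seen.

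**Figure D3:**
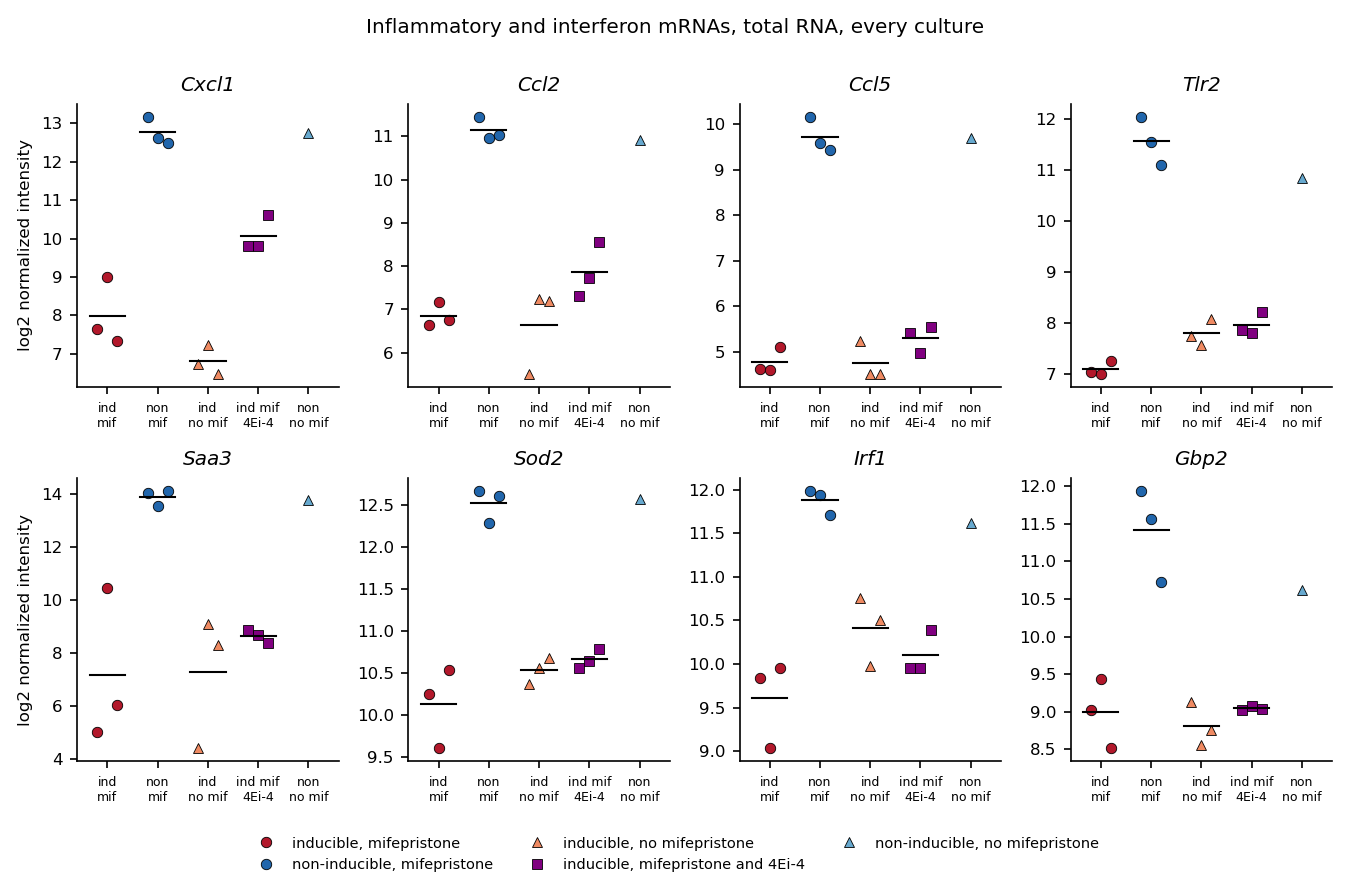
Log2 normalized intensity in total RNA of 8 inflammatory and interferon-related mRNAs, 1 point per culture, with a bar at the mean of each group of 3 (ind, inducible line; non, non-inducible line; mif, mifepristone). In every panel the 3 non-inducible cultures with mifepristone lie above all 9 inducible cultures, and the inducible Saa3 values spread from 4.39 to 10.46. The 8 genes were picked among those called lower in total RNA, and the line and the batch cannot be told apart.

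Single genes outside that list, named for the size of their difference or as members of other lists, follow, and no list of inflammation genes beyond it was counted. Tlr2 (gene ID 24088), a receptor for bacterial lipoproteins, was at 7.04, 6.99 and 7.26 against 12.04, 11.55 and 11.10 in total RNA. It differed by -4.47 ± 0.37 (limma, adjusted p = 1.94e-07), and by -3.66 ± 0.53 on polysomes (adjusted p = 0.000255). Saa3, an acute-phase protein, was at 5.01, 10.46 and 6.03 against 14.03, 13.54 and 14.12. Its groups did not overlap, but the inducible cultures varied widely, and the difference was -6.72 ± 1.54 (limma, adjusted p = 0.0112). Sod2, the mitochondrial superoxide dismutase, was at 10.25, 9.60 and 10.53 against 12.67, 12.29 and 12.61, a difference of -2.39 ± 0.34 (limma, adjusted p = 0.000181), and -2.45 ± 0.32 on polysomes.

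Fas, a death receptor, was at 5.58, 6.26 and 5.84 against 10.41, 9.79 and 9.50 in total RNA (-4.01 ± 0.51, limma, adjusted p = 3.81e-05). It was 1 of 2 genes of the 21 tested in the p53 list that were called in total RNA, both lower (9.52%, against 6.24% of all genes). The other was Sesn1 (-1.35 ± 0.29), a stress-response gene, of which other probes gave -1.96 and -0.45. Lcn2, an iron-trafficking lipocalin, was detected on none of the inducible arrays and was at least 3.96-fold lower in total RNA (limma, adjusted p = 0.00596). Gch1, which starts the synthesis of tetrahydrobiopterin, differed by -3.27 ± 0.54 on polysomes (limma, adjusted p = 0.00127), at 5.97, 6.61 and 5.59 against 9.46, 9.06 and 9.45.

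Interferon response mRNAs were lower in part. Of 30 tested, limma called 8 lower and 0 higher in total RNA (26.7%, against 6.24% of all genes in either direction and 3.35% lower), with a median of -0.69. On polysomes it called 6 lower and 0 higher (20%, against 2.57% of all genes), with a median of -0.73. With the authors' deposited log2 values the medians were -0.24 and -0.30, and among genes detected on all 12 arrays -1.06 and -1.30, with 2 of 14 lower in total RNA. Without inducible culture 2 or without non-inducible culture 2 the count in total RNA was 5, and over all 6 omissions it was 5 to 10. Irf1 (gene ID 16362), a transcription factor of the interferon response, was at 9.84, 9.03 and 9.96 against 11.99, 11.94 and 11.71. It differed by -2.27 ± 0.37 in total RNA (limma, adjusted p = 0.000617) and by -2.73 ± 0.48 on polysomes (adjusted p = 0.00211).

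Gbp2, a guanylate-binding protein, was at 9.02, 9.44 and 8.51 against 11.94, 11.57 and 10.73 in total RNA. On polysomes it was at 8.13, 8.86 and 7.99 against 12.35, 11.54 and 10.65. These groups did not overlap, with differences of -2.43 ± 0.41 (limma, adjusted p = 0.000968) and -3.19 ± 0.58 (adjusted p = 0.00302). Gbp3 differed by -2.28 ± 0.35 and -2.73 ± 0.40, with detection on 1 of 3 inducible polysome arrays, and guanylate-binding proteins are close relatives, so their probes may share signal. Oasl2, an antiviral synthetase-like protein, and Usp18, the ISG15 protease, were detected on none of the inducible arrays and were at least 3.86-fold and 2.93-fold lower on polysomes. A second Usp18 probe, detected on 6 of 12 arrays, gave a log2 difference of -0.77 there. In total RNA the calls of Usp18, Ifitm1, Ifitm3 and Ifi27 were each lost in at least 1 of the 6 omissions, that of Ifitm1 in all but that of inducible culture 3 (limma, adjusted p up to 0.109). On polysomes the list also held Irgm1, an immunity-related GTPase (-1.70 ± 0.32, limma, adjusted p = 0.00336).

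In the MHC class I and immunoproteasome list, 3 of 16 tested members were lower in total RNA (18.8%, against 3.35% of all genes lower) and 2 on polysomes (12.5%, against 1.39% lower), with none higher. Psmb10, an immunoproteasome subunit, was at 9.66, 9.56 and 8.64 against 11.30, 10.88 and 10.95 (-1.76 ± 0.33, limma, adjusted p = 0.00237). Psme1, a proteasome activator subunit, differed by -1.15 ± 0.26 (limma, adjusted p = 0.0101) and by -1.32 ± 0.29 on polysomes. The count in total RNA was 2 to 5 over the omissions, with 2 without inducible culture 2.

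Without mifepristone the levels of these mRNAs also lay apart. In total RNA, the 1 non-inducible culture without mifepristone was at 12.74 for Cxcl1, 10.91 for Ccl2, 10.84 for Tlr2, 12.57 for Sod2 and 11.62 for Irf1. The inducible cultures without it were at 6.73, 7.22 and 6.46 for Cxcl1, at 7.74, 7.57 and 8.07 for Tlr2, and at 10.37, 10.56 and 10.68 for Sod2. Within batch 4, the inducible cultures with 4Ei-4 were at 7.86, 7.80 and 8.22 for Tlr2 and at 10.56, 10.64 and 10.78 for Sod2. With a single reference culture and another treatment, these are descriptions of levels and not tests of the line.

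Other large differences were in single genes. In all, 45 genes called in total RNA were detected on all 6 non-inducible arrays and on none of the 6 inducible ones, which detected fewer probes in all. Rgcc (gene ID 66214), a regulator of the cell cycle, was at 9.91, 10.25 and 10.59 in the non-inducible cultures and at 4.86, 4.62 and 4.54 in the inducible ones, at least 34.8-fold lower in total RNA and at least 34.7-fold on polysomes. Xlr4a, an X-linked lymphocyte-regulated gene with near-identical copies that may share its signal, was at 8.63, 8.52 and 8.53 against 4.41, 4.33 and 4.39. It was at least 10.8-fold lower in total RNA and at least 18.4-fold on polysomes, with the smallest adjusted p of limma in both (3.21e-13 and 1.59e-13). Ifi27l2a, an interferon-inducible gene, was at least 4.57-fold lower, and Rtl8c, a retrotransposon-derived gene, at least 3.53-fold.

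Both lines held these levels without mifepristone as well. Rgcc was at 10.84 and Xlr4a at 8.59 in total RNA of the non-inducible culture without it. In the inducible line without mifepristone they were at 5.10, 4.54 and 4.50, and at 4.44, 4.33 and 4.42.

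Among genes detected on all 12 arrays, Rnf144a, a ubiquitin ligase, was at 6.29, 6.41 and 6.70 in total RNA against 9.68, 9.50 and 10.01. It differed by -3.26 ± 0.40 (limma, adjusted p = 2.78e-05) and by -3.34 ± 0.46 on polysomes. Hsd11b1, the enzyme that regenerates active glucocorticoid, was at 7.35, 8.81 and 7.29 against 10.83, 10.83 and 11.59 (-3.27 ± 0.45, limma, adjusted p = 0.000136), and 2 other probes gave -3.08 and -2.96. Of 19 tested genes of the glucocorticoid receptor list, on which Hsd11b1, Lcn2 and Saa3 also stand, 3 were lower and 1 higher in total RNA (21.1%, against 6.24% of all genes), the higher one being the kinase Sgk1 (1.06 ± 0.32), whose call was lost without any 1 culture other than inducible culture 3 (adjusted p up to 0.143). Xpnpep2, a membrane aminopeptidase, differed by -3.28 ± 0.48 in total RNA (limma, adjusted p = 0.000216), and on polysomes its -1.20 ± 0.50 was not called.

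Matrix genes were counted in 3 lists in total RNA. Of 31 collagens and collagen-modifying enzymes 3 were lower and 0 higher (9.68%, against 6.24% of all genes in either direction and 3.35% lower), with a median of -0.11. Of 30 matrix proteases and inhibitors 4 were lower and 0 higher (13.3%, against 3.35% lower), with a median of -0.01. Col18a1, the endostatin precursor, was at 4.59, 4.39 and 4.81 against 7.39, 6.62 and 6.94, with detection on 1 of 3 inducible arrays (-2.39 ± 0.34, limma, adjusted p = 0.0002). Timp3, an inhibitor of metalloproteinases, was at 10.11, 9.92 and 10.32 against 12.28, 12.25 and 12.10 (-2.09 ± 0.26, limma, adjusted p = 3.49e-05), and 1 of its 2 dimmer probes gave -0.23. Without inducible culture 2, 1 collagen list member was called lower, and over the 6 omissions 1 to 5 were. Of the proteases and inhibitors, 2 were called without inducible culture 1, inducible culture 2 or non-inducible culture 2. Of 44 other matrix proteins 4 were lower and 1 higher (11.4%), the lower ones including Tgfbi, an adhesive protein (-2.48 ± 0.51, limma, adjusted p = 0.00524).

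In the NRF2 and integrated stress response lists the genes called in total RNA were 3 each. Of 27 tested targets of NRF2, the factor that answers oxidative stress, 3 were higher and 0 lower in total RNA (11.1%, against 6.24% of all genes in either direction and 2.89% higher), with a median of 0.16, and on polysomes 0 were called. Nqo1, a quinone reductase, was at 8.39, 8.43 and 7.43 against 5.82, 5.35 and 6.37 (2.23 ± 0.42, limma, adjusted p = 0.00257). Hmox1, haem oxygenase, was at 10.24, 7.43 and 8.57 against 6.88, 6.65 and 6.82, and its call was lost without inducible culture 1 and without each non-inducible culture, with an adjusted p of up to 0.156. Srxn1 lost its call without inducible culture 1 or 2 and without non-inducible culture 1 or 2, and over the omissions 1 to 6 list members were called higher. Of 34 tested integrated stress response genes 3 were higher and 0 lower in total RNA (8.82%, against 2.89% of all genes higher), with a median of 0.18, and 1 to 5 were over the omissions. Ddit3 (1.34) and Cebpg (1.30) were among them, and both lost their calls with the mean of a gene's probes. A second Ddit3 probe, detected on all 12 arrays, gave 0.39, and a Cebpg probe detected on 10 gave -0.27.

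Calls among genes of the translation machinery rested on single cultures in part. Of 17 tested subunits and regulators of eIF4F, limma called 2 lower in total RNA (11.8%, against 6.24% of all genes in either direction and 3.35% lower) and 0 on polysomes. Pabpc1, the poly(A)-binding protein, was at 8.41, 9.73 and 11.06 against 11.63, 11.63 and 11.81 (-1.96 ± 0.51, limma, adjusted p = 0.0256). Its inducible values differed by batch, the call was lost without inducible culture 1 or non-inducible culture 3 (adjusted p up to 0.0797), and 2 further probes gave 1.46 and 0.42. The eIF4E transporter Eif4enif1 (-0.98 ± 0.27) lost its call without inducible culture 1 or any 1 non-inducible culture (adjusted p up to 0.112), and a second probe, detected on all 12 arrays, went the other way (0.27 in total RNA and 0.46 on polysomes). Of 31 other translation factors 1 was higher and 1 lower in total RNA (6.45%, near the share of all genes), and without inducible culture 3 the counts were 3 and 5. The lower one, Eif2s3x, the X-linked subunit of eIF2, was at 7.27, 7.03 and 7.76 against 8.89, 8.90 and 8.87 (-1.53 ± 0.31, limma, adjusted p = 0.00425). On polysomes Eif2s3x differed by -1.36 ± 0.31 (adjusted p = 0.0186).

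Of 54 tested cytosolic ribosomal protein mRNAs, 1 was called higher and 1 lower in total RNA (3.7%, against 6.24% of all genes), with a median difference of -0.09. The higher one, Rps15, was lost in 4 of the 6 omissions and the lower one, Rps3a1, in 5. limma called 0 of 20 genes of G2/M and mitosis, 0 of 36 of G1/S and replication and 0 of 27 contractile genes in total RNA, polysome RNA and efficiency. Of all genes it called 6.24%, 2.57% and 0%. The medians of these 3 lists in total RNA were -0.45, 0.09 and -0.22. Their median 95% half-widths were 1.46, 0.84 and 0.71, against 0.70 over all genes, so the G2/M genes were measured with less precision. Pgk1, a glycolytic kinase, was the 1 of 17 glycolysis genes called in total RNA (5.88%, near the 6.24% of all genes). Its levels were 8.84, 8.36 and 9.63 against 11.62, 11.58 and 12.03 (-2.80 ± 0.42, limma, adjusted p = 0.000319), and another probe, detected on 7 of 12 arrays, gave -0.59.

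Mitochondrially encoded mRNAs differed among the inducible cultures themselves. COX2, a subunit of cytochrome oxidase, was at 8.65, 7.92 and 10.40 in total RNA against 11.30, 11.84 and 11.57 (-2.58 ± 0.57, limma, adjusted p = 0.00962). Of 8 tested, 3 were lower and 0 higher in total RNA (37.5%, against 6.24% of all genes in either direction and 3.35% lower), with a median of -1.13, or -0.67 with the authors' deposited log2 values. The median level per culture was 8.9, 8 and 10.89 against 11.47, 11.96 and 11.81. Inducible culture 3, in batch 3, was the nearest to the non-inducible cultures. Over the omissions 1 to 5 members were called, with 1 when inducible culture 1 or 2 or non-inducible culture 2 or 3 was left out.

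**Figure D4:**
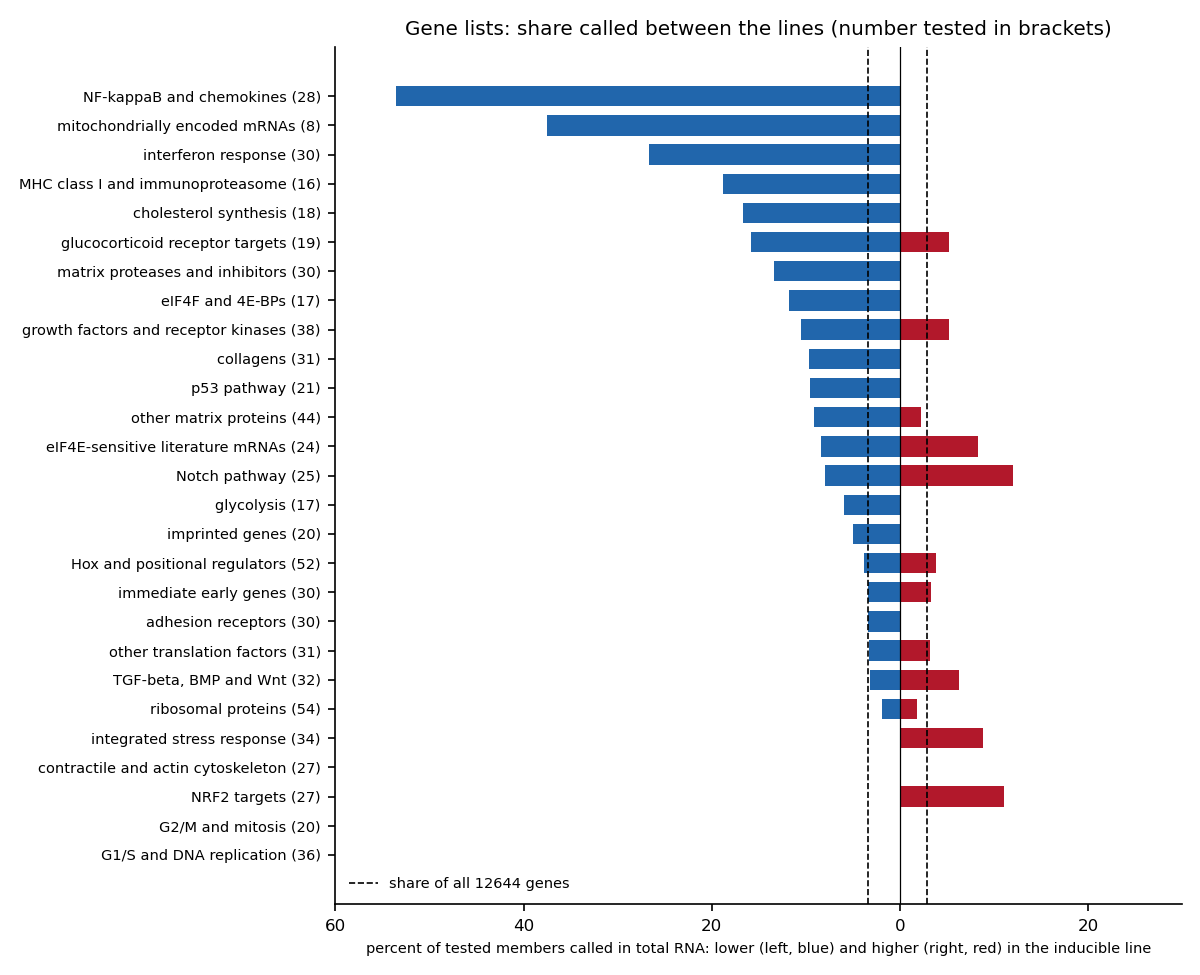
Bars give, for 27 gene lists, the percent of tested members that limma called in total RNA, to the left in blue lower and to the right in red higher in the inducible line, with the number tested in brackets. Dashed lines mark the share of all 12644 genes, 3.35% lower and 2.89% higher. The NF-kappaB and chemokine list has 53.6% lower, and the G1/S, G2/M and contractile lists have no call.

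In efficiency no gene was called, so the values that follow do not pass the test. Of genes detected on all 12 arrays, Tmem259, a membrane protein of the endoplasmic reticulum, had the smallest p for a higher efficiency. It was at 0.25, 0.61 and -0.22 in the inducible cultures and at -1.54, -1.34 and -1.59 in the non-inducible ones, a difference of 1.70 ± 0.32 (limma, adjusted p = 0.114). Its total RNA differed by 0.12 ± 0.23 and its polysome RNA by 1.82 ± 0.39, the latter called (limma, adjusted p = 0.0129). Kank1, an adaptor at the cell cortex, had 1.15 ± 0.26 (limma, adjusted p = 0.301), and Inf2, a formin, 1.44 ± 0.33 (adjusted p = 0.325).

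For a lower efficiency, Ing3, a chromatin-reader subunit, had -1.34 ± 0.29 (limma, adjusted p = 0.242), with values of -0.46, -0.78 and -0.16 against 1.27, 0.67 and 0.70. Wdr92, a WD-repeat protein, had -1.33 ± 0.32 (limma, adjusted p = 0.328) and Etv1, an ETS transcription factor, -2.10 ± 0.55 (adjusted p = 0.451). 2 further Etv1 probes disagreed with each other in total RNA, at 1.21 and -1.13. The groups of these 6 genes did not overlap, which follows largely from choosing them by the smallest p. Over all genes the smallest adjusted p belonged to Pde4b (0.0764), whose polysome signal was not detected on any of the 6 arrays, so its efficiency has no measured numerator.

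Collagen mRNAs had a median efficiency difference of 0.84 over 31 tested genes, against 0.00 over all genes, and none was called (8 at an unadjusted p under 0.05). Of the 31 collagen list members, 29 were above 0, against 6268 of the 12644 genes tested. With the authors' deposited log2 values the median was 0.30, with no background correction 0.39, and without inducible culture 2 it was 0.45. The fibroblast markers, which include collagens, had 0.91 over 14, with 9 above 0. Medians also lay above 0 for other matrix proteins (0.34, 32 of 44 above 0), adhesion receptors (0.33, 22 of 30) and ribosomal proteins (0.21, 38 of 54). Some lists lay below, such as the interferon list (-0.17, 9 of 30). Per culture the collagen list's median efficiency was -0.56, 0.16 and -1.02 in the inducible line and -1.16, -1.03 and -1.16 in the non-inducible line. The groups did not overlap, and inducible culture 2, the culture with the dimmest arrays, stood highest while inducible culture 3 was next to the non-inducible range. The part of array brightness in this difference was not tested.

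Col1a1, the main fibrillar collagen, was at -1.76, 0.23 and -3.07 against -3.70, -3.56 and -3.60 in efficiency, 2.09 ± 1.13 (limma, adjusted p = 0.659). Its inducible values ranged over more than the difference itself. In batch 4 the inducible cultures with 4Ei-4 were at -0.46, -0.10 and 0.38, and the inducible cultures without mifepristone at 0.20, -2.96 and -2.22. Thy1, a fibroblast surface protein chosen after its values were seen, had 1.42 ± 0.38 (limma, adjusted p = 0.451).

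**Figure D5:**
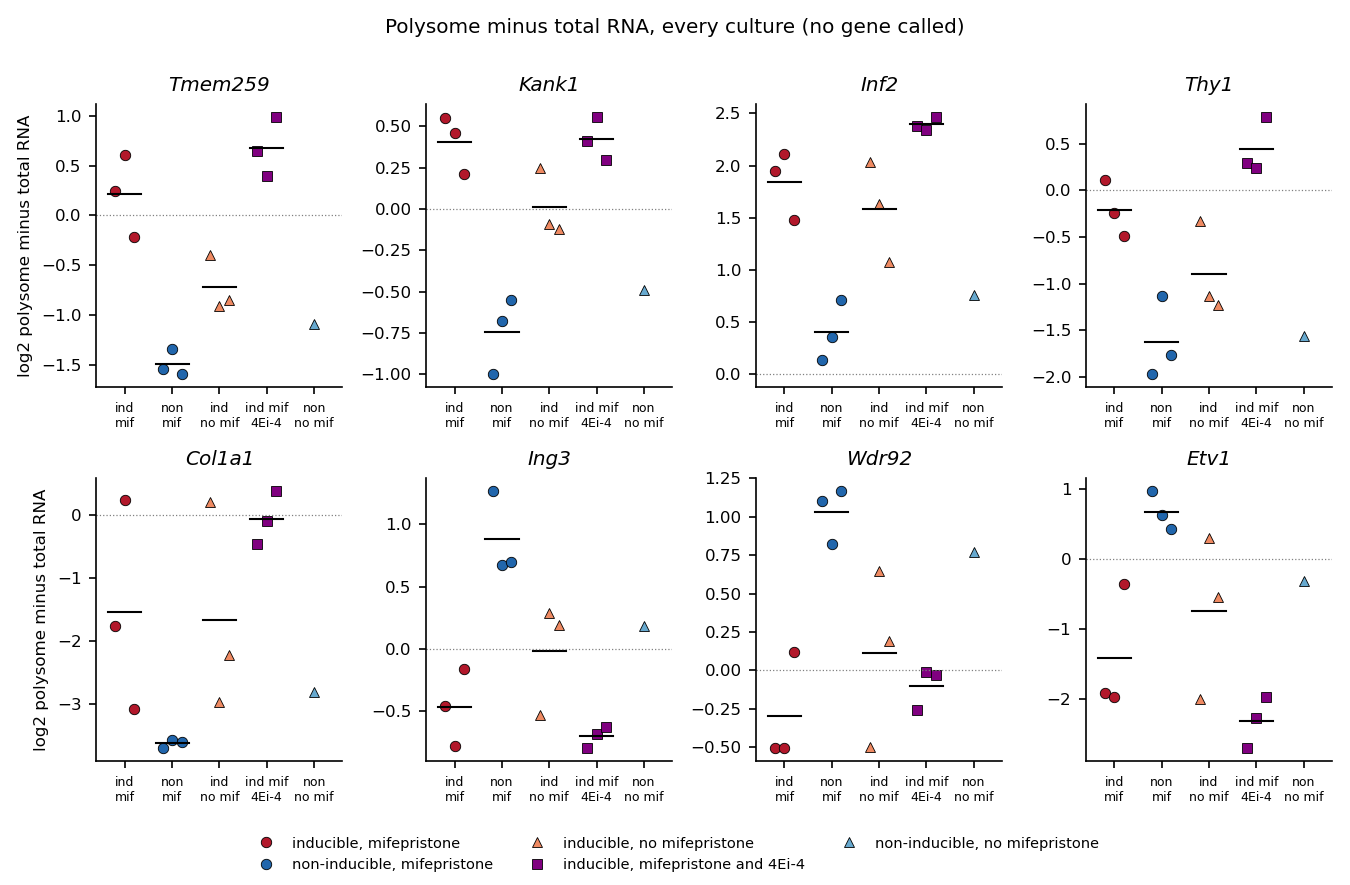
Efficiency, the log2 polysome minus the log2 total RNA level, of 8 mRNAs, 1 point per culture, with a bar at the mean of each group of 3 (ind, inducible line; non, non-inducible line; mif, mifepristone). None was called between the first 2 groups of each panel. Those groups do not overlap in the 8 panels, but the genes were chosen by the smallest p or after their values were seen. Col1a1 ranged from -3.07 to 0.23 in the inducible line.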

How the data were processed

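The authors deposited one table of non-normalized probe intensities with a detection p-value for each, per the file headers, and a second table of log2 values that they had normalized by a method that no header or label names. The scanner software and any background step are likewise not given in the sources used here. From the intensities of all 50 arrays, limma 3.58.1 (R 4.3.3) corrected background with normexp, using the deposited detection p-value to find background probes and an offset of 16, then quantile-normalized the arrays and took log2. This forces one distribution on polysome and total arrays, so efficiency is relative to the other genes. Each gene was represented by its brightest probe. Of 45281 probes 34885 carried 1 gene symbol, 18 several and 10378 none in the platform annotation, and 34807 were matched to RefSeq by gene ID.

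Genes were tested where the detection p-value was below 0.05 on at least 3 of the 50 arrays, which left 12644 of 19057. limma fitted group means over all 25 cultures, with the processing batch of the labels as a random block (consensus correlation 0.407 in total RNA, 0.448 on polysomes, 0.172 in efficiency). Efficiency was computed per culture before the fit. Such a block cannot remove a batch that holds only 1 of the groups compared. Replicate numbers did not pair the cultures, since correlations of same-numbered deviations lay between -0.24 and 0.09. The number of arrays limits the precision. The scripts were tested on simulated data.

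The named genes were Eif4e, the 6 largest called differences each way per RNA among genes detected on all 12 arrays, the 6 largest bounds each way among genes detected in 1 line alone, up to 3 called members of each list with the smallest adjusted p, and, for efficiency, the 3 smallest p each way. Predicted loci were passed over. Other genes were chosen after their values were seen. The members and the lists were themselves chosen with earlier results of these data known.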

Additional observations from a re-analysis of the deposited data

How the results depend on the processing

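Against 789 genes called in total RNA, limma called 268 among genes detected on all 12 arrays, 2062 with no batch term and 456 to 1665 when 1 culture was left out. Against 325 on polysomes it called 551 with no filter on low values, 50 among genes detected on all 12 arrays, 1413 with no batch term, 776 from the 6 cultures alone and 192 to 421 when 1 culture was left out. A further fit held the cultures of batch 4 alone, with no batch term, so its spread came from 1 batch. Its inducible cultures had also received 4Ei-4. There limma called 5442 genes in total RNA, 5989 on polysomes and 4319 in efficiency, counts that are not comparable with the others. Against 0 in efficiency it called 17 with no background correction, 7 with an offset of 50, 64 on the authors' deposited log2 values (48 higher, 16 lower), 1 with polysome and total arrays normalized separately, 7 with no filter, 6 with the mean of a gene's probes, 5 with no batch term, and 0 to 12 when 1 culture was left out, with 12 without inducible culture 3. Of the 789 and 325 calls, 531 and 205 were of genes detected on all 12 arrays. The cause of these shifts was not tested. The share of lower calls moved from 53.6% to 36.6% in total RNA (98 of 268) and from 54.2% to 38% on polysomes (19 of 50) under that filter, and to 70.2% on polysomes with the authors' log2 values (313 of 446). With the replicate number as a block, limma called 861 genes in total RNA, 345 on polysomes and 1 in efficiency. The numbers are labels that the data did not show to pair the cultures. Of 177 calls of named genes, 128 held in all 6 omissions of a culture and 49 were lost in at least 1.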

Other observations

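The genes called in total RNA were spread unevenly over the chromosomes of the RefSeq annotation. On the X chromosome limma called 53 of 423 tested genes lower and 5 higher in the inducible line, 12.5% lower against 3.35% of all genes, and on polysomes 29 lower and 2 higher. Besides Xlr4a, Xpnpep2, Pgk1 and Rtl8c, the lower X genes included Dynlt3, a dynein light chain (-3.25), Pgrmc1, a haem-binding membrane protein (-2.31), Tfe3, a lysosomal transcription factor (-2.26), and Ogt, the O-GlcNAc transferase (-2.24), all chosen after their values were seen. The call of Ogt was lost without inducible culture 1 or 2 (limma, adjusted p up to 0.0693), and that of Pgrmc1 without any 1 culture other than inducible culture 3 (adjusted p up to 0.11). Chromosome 15 went the other way, with 32 of 504 tested genes called higher and 8 lower (6.35% higher, against 2.89% of all genes) and a median of 0.12. Its higher genes included Tafa5, a secreted protein (2.52), Asic1, Pde1b, a phosphodiesterase (2.07), Gdnf, a neurotrophic factor (1.97), and Igfbp6, and the call of Pde1b was lost without inducible culture 2 (limma, adjusted p = 0.0629). In total RNA Tafa5 was detected on 1 and Pde1b on 2 of the 3 non-inducible arrays, and Pgrmc1 and Tfe3 on 1 of the 3 inducible arrays. These counts are descriptions without a test.

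A pair of neighbouring genes stood out in both RNAs. Ap1g2, an adaptor subunit, was at least 2.44-fold lower in total RNA and at least 3.95-fold lower on polysomes (limma, adjusted p = 2.52e-07 and 2.54e-08). Its other probes were each detected on 0 of 12 arrays and gave log2 differences of 0.05, -0.05 and -0.01 in total RNA, so these bounds rest on a single probe. Thtpa, a thiamine triphosphatase, was at least 2.82-fold and 3.85-fold lower (limma, adjusted p = 5.79e-07 and 1.36e-07). Neither was detected on any inducible array of the comparison.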
